A study of Mus musculus with 4 samples.

Results

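Cells of the Tbx1 lineage that carried both Tcf15 and Meox1 were examined across genes, by stage and by genotype. Tcf15 (paraxis) and Meox1 (Mox1) encode transcription factors of the paraxial mesoderm. Members were chosen by their raw counts of unique molecular identifiers (UMIs, 1 per captured transcript molecule). A barcode needed at least 2 UMIs of Tcf15 and at least 2 of Meox1. It could hold no more than 2 UMIs of Arg1, of Epcam, or of Cdh5 and Pecam1 together, which kept out Arg1-rich progenitors, epithelium and endothelium. This gave 374 members of 14243 barcodes in all.

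There were 4 droplet libraries of GFP-positive, DAPI-negative sorted cells, with 1 library per group, from pooled Swiss Webster embryos. Ctrl embryos were Tbx1Cre/+;Rosa26-GFPflox/+ and cKO embryos were Tbx1Cre/flox;Rosa26-GFPflox/+, each taken at E8.5 and at E9.5. Cre sat in the Tbx1 locus and replaced 1 functional copy there, so Ctrl embryos were heterozygous for Tbx1, and GFP marked cells that had ever switched that locus on together with their descendants. The label for E8.5 tissue was the upper part of the body. E9.5 tissue was labelled as the pharyngeal apparatus with the heart, to which the study's own sample list adds the back. No group had a replicate, and the libraries held 25391654 to 104773150 UMIs. All intervals given are 95% intervals of counting error, exact except for those of differences between shares. Variation from embryo to embryo or from preparation to preparation is not in them. By the study's sample list, the cKO pools held fewer embryos than the Ctrl pools at both stages. At E8.5 the cKO embryos also had slightly more somites. Genotype, pool, small differences in age and library therefore cannot be told apart at either stage, and neither can stage, dissection and library.

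Somites are blocks of paraxial mesoderm that form in pairs beside the neural tube. The ventral part of each becomes sclerotome, the source of vertebrae, and is marked by Pax1, Pax9 and Nkx3-2. The dorsal part becomes dermomyotome, marked by Pax3 and Pax7, from which muscle precursors with Myf5 arise. Tcf15 and Meox1 act in the formation and patterning of somites, and the paraxial mesoderm of the head lacks segments.

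The rule selected 94 of 1434 barcodes in Ctrl E8.5, or 6.56% (5.33 to 7.96). In cKO E8.5 it selected 57 of 1090, or 5.23% (3.98 to 6.72). In Ctrl E9.5 it selected 77 of 5453, or 1.41% (1.12 to 1.76), and in cKO E9.5 146 of 6266, or 2.33% (1.97 to 2.73). The share was thus lower at E9.5 than at E8.5 in both genotypes. The intervals of the genotypes overlapped at E8.5 and did not at E9.5. The cKO share minus the Ctrl share was −1.33 percentage points (−3.20 to 0.606) at E8.5 and 0.918 points (0.417 to 1.42) at E9.5. Members had a median of 18456, 27865, 16798 and 18766.5 UMIs in Ctrl E8.5, cKO E8.5, Ctrl E9.5 and cKO E9.5, the order used for 4 values throughout. No member barcode was shared between libraries, of 83 barcodes that any pair of libraries shared.

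**Figure D1:**
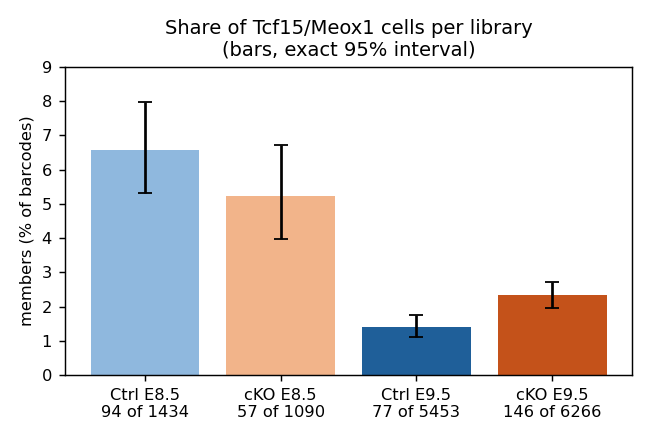
Members as a percentage of the barcodes in each of the 4 libraries, with exact 95% intervals of counting error. The bars stand at 6.56%, 5.23%, 1.41% and 2.33%, with both E8.5 bars above both E9.5 bars.

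The E8.5 comparison of shares rested on the Arg1 limit. Of the barcodes with 2 or more UMIs of both Tcf15 and Meox1, the upper limits left out 112 of 206 in Ctrl E8.5, 175 of 232 in cKO E8.5, 18 of 95 in Ctrl E9.5 and 49 of 195 in cKO E9.5. Arg1 alone accounted for 111, 175, 17 and 48 of these. Without a limit on Arg1, the cKO share at E8.5 was 6.99 percentage points above the Ctrl share. Barcodes thinned to equal depth before the rule gave a difference of 1.28 points at E8.5, so the order of the genotypes at E8.5 depended on both choices. At E9.5 the cKO share stayed above the Ctrl share, by 1.37 points without the Arg1 limit. Near the lower threshold, 30, 18, 50 and 72 members held exactly 2 UMIs of at least 1 of the rule genes. Another 51, 23, 107 and 222 barcodes met the other limits and held 1 UMI of one gene with 2 or more of the other.

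Tcf15 (ENSMUSG00000068079) lies on chromosome 2 from 152143056 to 152149097 and Meox1 (ENSMUSG00000001493) on chromosome 11 from 101877510 to 101894354 in mm10. Levels are given as UMIs per 1000000 UMIs of the genes shared by all libraries (UPM), summed over the members of a library. Because the rule chose members on them, Tcf15 and Meox1 levels are a description. Tcf15 stood at 294, 240, 175 and 216 UPM in members, against 58.6, 78.6, 7.69 and 11.8 UPM in the remaining barcodes. Meox1 stood at 242, 212, 219 and 245 UPM in members, against 54.9, 101, 32.8 and 106 UPM in the rest. Outside the members, Tcf15 was thus far lower at E9.5 than at E8.5, and the Meox1 level of the remaining barcodes was higher in the cKO library than in the Ctrl library at both stages. The rest includes the 112, 175, 18 and 49 barcodes with both genes that the upper limits left out. Its levels of the rule genes therefore depend on the rule as well and are a description.

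The label of somitic mesoderm held in part. Smoc1, a secreted matrix protein, was at 44.9, 35.1, 61.8 and 29.2 UPM in members and at 19.7, 25.9, 17.0 and 14.0 UPM in the rest. Foxc2, a forkhead factor of paraxial mesoderm and its mesenchyme, was at 88.7, 108, 131 and 71.2 UPM against 56.2, 77.2, 58.2 and 49.4 UPM. Smoc1 and Foxc2 were therefore higher in members than in the rest in all 4 libraries, by 1.36-fold to 3.63-fold for Smoc1 and by 1.40-fold to 2.24-fold for Foxc2. Both genes were chosen with earlier results of these data known, so their levels are no independent check of the label. The rest is a mixture of cell types. In cKO E9.5, barcodes with Tcf21 and Lhx2 held Smoc1 at 26.8 UPM and in 45.3% of 53 barcodes (31.6 to 59.6), against 36.3% of 146 members (28.5 to 44.7).

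Genes of somite formation were mostly at or near 0, and genes of the committed somite compartments were mixed. The 15 presomitic and segmentation genes summed to 48.5, 24.6, 40.0 and 16.9 UPM in members, below the rest in each library and mostly from Fgf8 and Cyp26a1. Of these genes, Tbx6, Msgn1, Cdx2 and Wnt3a had no UMI in any member. Mesp2 had 1 UMI and Ripply2 had 2 among all members. Of the compartment genes, Nkx3-2 and Pax7 had none. Pax1 had 2, 0, 4 and 28 UMIs, and Pax9 8, 10, 43 and 56. Sox9 was more abundant, at 220, 167, 185 and 187 UMIs. Pax3 had 26, 30, 0 and 88 UMIs. The sclerotome list summed to 338, 389, 491 and 321 UPM in members, against 273, 298, 336 and 312 UPM in the rest. Myod1 had 1 UMI and Myog 3 UMIs over all libraries, and Myf5 had 4, 1, 0 and 7. Aldh1a2, the enzyme that makes retinoic acid in somites, had 16, 11, 0 and 3 UMIs.

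Hox genes, which give a cell's place along the body axis, were present mainly as the front-most members of their clusters. Of 39 Hox genes, 24 had no UMI in any member. Hoxa2 had 44, 54, 103 and 163 UMIs, and Hoxb2 had 52, 48, 47 and 137. Hoxb4 had 5, 7, 2 and 2 UMIs, Hoxd4 had 2, 9, 0 and 0, and Hoxa5 had 6, 0, 0 and 2. Hoxa2 was 1.85-fold to 2.58-fold higher in members than in the remaining barcodes of the same library. Since segmentation genes were mostly at or near 0 and compartment genes were mixed, the cells are called by their rule genes, Tcf15/Meox1 cells, here.

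**Figure D2:**
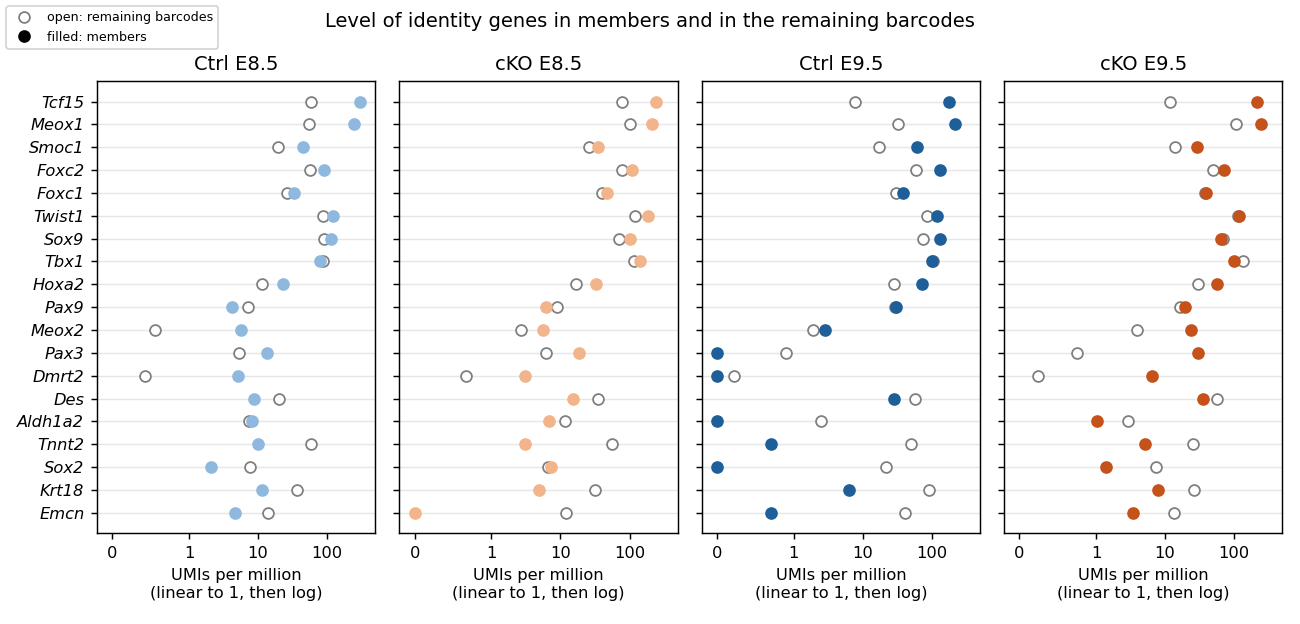
Level in UPM (linear up to 1, logarithmic above) of 19 genes in members (filled) and in the remaining barcodes (open) of each library. Tcf15 and Meox1 set the rule, Smoc1, Foxc2 and Hoxa2 lie to the right of the rest in all 4 panels, and Pax3 and Dmrt2 are at 0 in Ctrl E9.5 members only.

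The 20 genes with the largest fold in Ctrl E9.5 members over the rest began, after Tcf15 and Meox1, with Smoc1 (3.63-fold), Hoxa2 (2.58-fold), Cited1 (2.31-fold), Foxc2 (2.24-fold) and Pdgfra (2.22-fold). Pdgfra encodes a growth factor receptor of mesenchyme. The rule chose these cells, so the ranking is a description. Of the 20 genes, 15 were also above the rest in each of the other 3 libraries, counting Tcf15 and Meox1, for which the rule fixed this. The margin could be small, as for Tmem119 at 1.004-fold in cKO E8.5. The share over all genes was not computed, so this count is a description too. Plpp3, Nr2f1 and Cthrc1 were above the rest at E9.5 and below it at E8.5. Plpp3 went from 29.9 and 27.7 UPM at E8.5 to 308 and 116 UPM at E9.5.

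Marker genes of other cell types were low in members. The 6 cardiomyocyte genes summed to 85.1, 37.6, 17.5 and 42.3 UPM, against 277 to 446 UPM in the rest. The 6 epithelial genes summed to 21.1, 6.77, 16.8 and 11.4 UPM, of which Cdh1 had no UMI. The 6 endothelial genes, mostly Egfl7, summed to 112, 78.8, 44.2 and 48.5 UPM, below the rest in each library. The epithelial and endothelial lists hold Epcam, Cdh5 and Pecam1, which the rule limited in members. The rest kept the barcodes over these limits, so the rule set the low levels of these lists in part, and they are a description. Neural genes summed to no more than 9.85 UPM, neural crest genes to no more than 7.91 UPM, blood genes to no more than 7.23 UPM and intermediate mesoderm genes to no more than 10.3 UPM. Blood genes in Ctrl E8.5 and cKO E9.5, and intermediate mesoderm genes in Ctrl E8.5, were nonetheless above the rest. Notochord genes had 1 UMI in all. Cardiopharyngeal genes, at 359, 406, 305 and 260 UPM, were at 0.57 to 0.79 of the rest, and lateral plate genes, mostly Prrx1, were at 0.90 to 1.04 of the rest. Single cKO E9.5 members reached 2117 UPM of cardiomyocyte genes and 1007 UPM of blood genes. The member with that cardiomyocyte sum also held 35 of the 51 Acta2 UMIs of cKO E9.5 members. The part of such RNA in the other comparisons was not tested.

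Tbx1, the targeted gene, was read as a check of the labels. It lies on chromosome 16 from 18580979 to 18590671. In members it was at 79.9 UPM (67.9 to 93.6) in Ctrl E8.5, 142 UPM (125 to 162) in cKO E8.5, 102 UPM (85.9 to 120) in Ctrl E9.5 and 99.1 UPM (88.0 to 111) in cKO E9.5. Its 3′ end reads were thus higher in the library labelled cKO at E8.5, and the intervals overlapped at E9.5. Whether these reads cover the part removed by Cre is not given in the sources used here, so this level checks no label.

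At E9.5 the gene that was highest in cKO members relative to the remaining barcodes was Pax3. Pax3 (ENSMUSG00000004872) lies on chromosome 1 from 78101267 to 78197136 and encodes the paired-box factor of the dermomyotome. It had 88 UMIs in 32 of 146 cKO E9.5 members and no UMI in any of 77 Ctrl E9.5 members. With the 0 of Ctrl E9.5 set to a floor of 3 UMIs, its level was 14.4-fold higher in cKO E9.5 members, a log2 ratio of 3.85. The lower limit of the exact interval was a log2 ratio of 3.52. In the remaining barcodes it stood at 0.905 UPM in Ctrl E9.5 and 0.747 UPM in cKO E9.5.

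At E8.5 Pax3 was present in both genotypes, with 26 UMIs in 19 of 94 Ctrl members and 30 UMIs in 14 of 57 cKO members. These gave 13.4 UPM (8.76 to 19.6) and 18.5 UPM (12.5 to 26.4), which overlapped. So 3 of the 4 libraries held Pax3-bearing members, and Ctrl E9.5 did not.

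Counted by cells, 2 or more UMIs of Pax3 were found in 4.26% (1.17 to 10.5), 14.0% (6.26 to 25.8), 0% and 13.7% (8.57 to 20.4) of members. None of 77 allows a share of up to 3.90% at 3 counts, and the exact interval reaches 4.68%, both limits on members with such UMIs and not on members that express the gene. After every member was thinned to 10000 UMIs, Pax3 was seen in 10 of 88, 11 of 57, 0 of 75 and 20 of 142 members. In endothelial barcodes, which should lack Pax3, 0 of 315 in Ctrl E9.5 and 0 of 69 in cKO E9.5 held a Pax3 UMI, at median depths of 20380 and 16335 UMIs. Epithelial barcodes held one in 6 of 730 and 2 of 201. In barcodes with Zic1 and Msx1 the order was the other way, with Pax3 in 10 of 109 in Ctrl E9.5 (10.3 UPM) and 7 of 225 in cKO E9.5 (2.22 UPM).

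The same held at lower thresholds and in whole libraries. With 1 UMI of Tcf15 and of Meox1 in place of 2, the share of cells with 2 or more Pax3 UMIs was 4.71% in cKO E9.5 and 0% in Ctrl E9.5. In the whole Ctrl E9.5 library, 19 barcodes held 2 or more UMIs of Pax3, of which none held Tcf15 and 16 held Sox2, a neural gene. In the whole cKO E9.5 library, 35 barcodes did, of which 30 held Tcf15 and 5 held Sox2. In Ctrl E8.5, 21 of 27 such barcodes held Tcf15, and in cKO E8.5, 30 of 40. The amount of somite in each E9.5 dissection is not given in the sources used here, so genotype, dissection and library cannot be told apart.

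**Figure D3:**
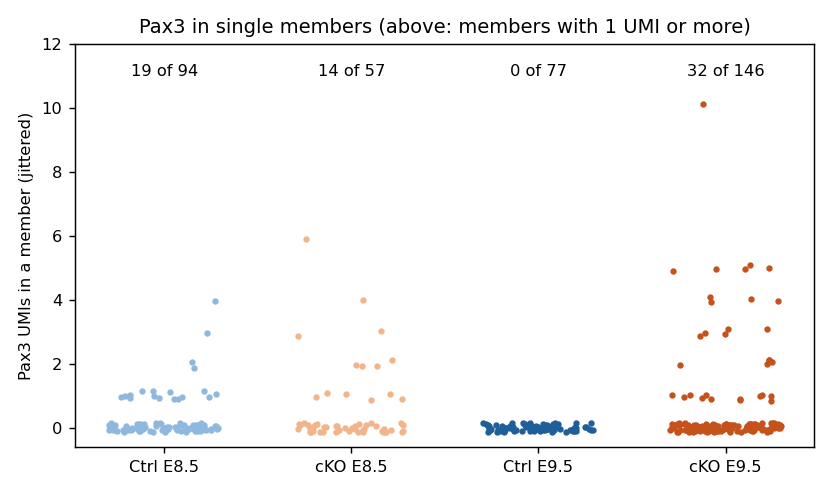
Pax3 UMIs in each member of the 4 libraries, jittered for display, with the number of members that held 1 UMI or more above each column. The columns read 19 of 94, 14 of 57, 0 of 77 and 32 of 146, and the highest member held 10 UMIs.

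The Pax3-bearing members of cKO E9.5 also differed from the other members in further genes. Splitting the cKO E9.5 members by 1 or more Pax3 UMIs gave 32 members with it and 114 without it. Members of one library are not replicates and Pax3 defined the split, so the values are a description. Of 5200 genes with at least 50 UMIs over both sets of members, 42 (0.808%) were 2-fold or more higher relative to the median gene in Pax3-bearing members and 97 (1.87%) were lower. Median depth was 21794 UMIs with Pax3 and 18026 without.

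The genes named from this split were picked after their values were seen. Dmrt2, a dermomyotome factor that acts on Myf5, had 16 UMIs in 11 of 32 Pax3-bearing members and 3 UMIs in 2 of 114 others. All 7 Myf5 UMIs were in 6 Pax3-bearing members. Meox2, the paralogue of Meox1, was at 44.4 UPM with Pax3 and 16.3 UPM without, and was seen in 20 of 32 and 20 of 114 members. Zic1, a zinc finger factor of dorsal somite and neural tube, was at 95.3 against 25.7 UPM. Wnt6, a ligand made by surface ectoderm, was at 35.3 UPM in 8 members against 4.20 UPM in 5. Crabp2, which binds retinoic acid, was at 512 against 169 UPM, and the Hedgehog co-receptor Gas1 was at 185 against 81.3 UPM.

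Acta2 (smooth muscle actin) was at 53.5 UPM with Pax3 and 4.67 UPM without, but 35 of the 51 Acta2 UMIs of all cKO E9.5 members lay in 1 member with Pax3. That member was the one with the highest sum of cardiomyocyte genes. Tagln, a calponin-family partner of Acta2, was at 45.7 against 19.6 UPM, in 15 of 32 and 18 of 114 members, and the highest member held 11 of 77 UMIs.

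Other genes were lower in Pax3-bearing members. Sox9, the cartilage factor, was at 17.0 UPM with Pax3 and 81.3 UPM without, and was seen in 8 of 32 and 78 of 114 members. Pax9 was at 5.22 against 24.3 UPM, and Ptch1, the Hedgehog receptor and target, at 10.4 against 44.8 UPM. Lum (lumican, a matrix proteoglycan) was at 11.8 against 102 UPM and was seen in 3 of 32 and 60 of 114 members. Tbx1 itself was at 37.9 against 121 UPM, in 10 of 32 and 74 of 114 members, and Foxc2 was at 31.3 against 85.5 UPM. Tcf15 was at 313 UPM with Pax3 and 181 UPM without, whereas Hoxa2 was at 52.2 and 57.5 UPM.

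The members without Pax3 sat between Ctrl E9.5 and the Pax3-bearing members for several of these genes. Lum stood at 343 UPM in Ctrl E9.5, 102 UPM in cKO members without Pax3 and 11.8 UPM in those with it. Sox9 stood at 130, 81.3 and 17.0 UPM in the same order. Zic1 stood at 4.91, 25.7 and 95.3 UPM and Meox2 at 2.81, 16.3 and 44.4 UPM. Dlk1 stood at 22.5, 129 and 308 UPM, but 23 of its 32 UMIs in Ctrl E9.5 lay in 1 member. Crabp2 did not follow this order, at 206, 169 and 512 UPM.

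**Figure D4:**
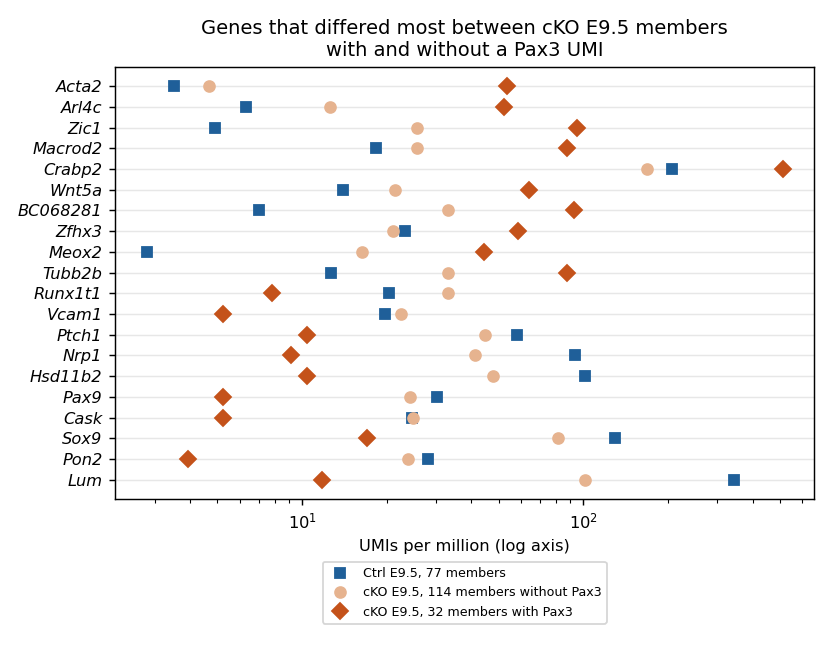
Level in UPM (logarithmic axis) in 77 Ctrl E9.5 members, 114 cKO E9.5 members without Pax3 and 32 with Pax3, for the 10 genes, Pax3 aside, with the highest and the 10 with the lowest ratio between the last 2 of these. In the lower 10 rows the Pax3-bearing members stand lowest for each gene, as for Sox9 at 17.0 and Lum at 11.8.

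Across all genes at E9.5, 203 of 6544 genes with at least 50 UMIs in both groups together (3.1%) were 2-fold or more higher in cKO members relative to the median gene, and 141 (2.15%) were lower. The median gene itself stood at −0.19 on the log2 scale, so a ratio near that value is the typical one. The cKO E9.5 library was counted on another gene table than the Ctrl E9.5 library, and the part of this in the counts was not tested. Of the higher genes, 85 were past 2-fold in the same direction in the remaining barcodes too, and of the lower genes, 34. Genes past 2-fold in members were therefore ranked by their log2 ratio in members minus that in the rest.

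After Pax3, the genes highest on this measure were Acta2, Tagln, Plvap, Arl4c, Rrm2b, Tubb2b, Zic1, Grrp1 and Timp3. Acta2 had a log2 ratio of 2.32, which was 0.97 without the member richest in it and −0.50 when 1 UMI of each rule gene was enough. Tagln went from 2.81 UPM in Ctrl E9.5 to 26.5 UPM in cKO E9.5, a log2 ratio of 3.24 (1.82 to 5.15), against 0.46 in the rest. Zic1 went from 4.91 to 44.0 UPM, a log2 ratio of 3.16 (2.08 to 4.51), against 0.71 in the rest. Tubb2b, a neuronal tubulin, went from 12.6 to 47.5 UPM and was seen in 12 of 77 and 69 of 146 members. Plvap, a protein of fenestrated endothelium, went from 5.61 to 23.1 UPM in 5 and 25 members. Timp3, a metalloproteinase inhibitor, went from 4.21 to 17.5 UPM. Rrm2b had 1 UMI in Ctrl and 109 UMIs in cKO members, with a log2 ratio of 3.27 in the remaining barcodes too, and the cKO E9.5 library had been counted on another gene table.

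The genes lowest on this measure were Ece2, Nefm, Dcaf12l1, Lum, Pex3, Ngfr, Eef2k, Islr, Hibch and Cyp26a1. Lum stood at 343 and 78.1 UPM, a log2 ratio of −2.14 (−2.37 to −1.91), against −0.84 in the rest. Cyp26a1, which degrades retinoic acid, stood at 31.6 UPM in Ctrl and 8.95 UPM in cKO members, a log2 ratio of −1.82 (−2.58 to −1.09). Nefm, a neurofilament subunit, stood at 19.6 and 7.91 UPM, and Ngfr, a neurotrophin receptor also found in paraxial mesoderm, at 34.4 and 14.5 UPM. Ece2 had 85 UMIs in Ctrl and 1 UMI in cKO members with a log2 ratio of −5.50 in the remaining barcodes too.

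**Figure D5:**
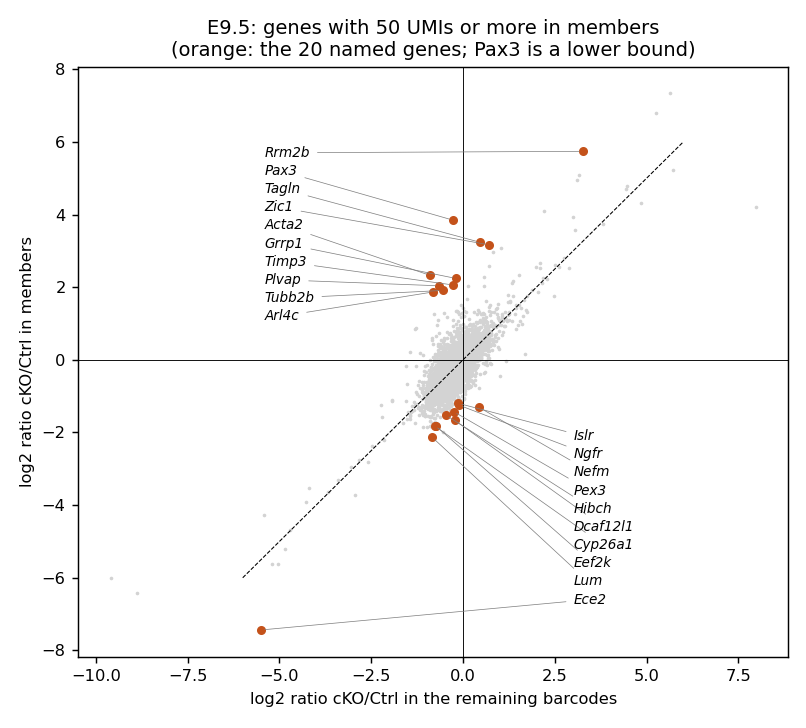
The log2 ratio of cKO to Ctrl at E9.5 in members (vertical) against that in the remaining barcodes (horizontal) for genes with 50 UMIs or more in members, with the dashed line marking equal ratios. The 20 named genes are in orange. Pax3 is drawn at its bound of 3.85, and Rrm2b and Ece2 lie far out on both axes.

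Gene lists at E9.5 were read against those shares. In the somitic mesoderm list, 7 of 10 genes could be compared, 1 was higher (Meox2) and 1 lower (Tbx18). The list holds Tcf15 and Meox1, which chose the members, so its count is a description. Tbx18, which sets the front part of a somite, went from 53.3 to 19.6 UPM. In the sclerotome list, 6 of 10 genes could be compared, none was past 2-fold on the higher side, and the median was −0.83. Summed sclerotome levels were 491 UPM in Ctrl and 321 UPM in cKO members. The genes of the list did not all lie on that side, with Pax1 at 4 and 28 UMIs, of which 1 cKO member held 13. The share of members with 2 or more UMIs of Pax1 and Pax9 together was 15.6% (8.32 to 25.6) in Ctrl and 14.4% (9.13 to 21.1) in cKO, a difference of −1.20 percentage points (−12.5 to 8.72). Sox9 (130 and 64.3 UPM) and Col2a1 (139 and 67.4 UPM), both cartilage genes, stood near the 2-fold line without passing it. Foxc2 was at 131 and 71.2 UPM and Smoc1 at 61.8 and 29.2 UPM, with log2 ratios of −0.87 (−1.17 to −0.58) and −1.08 (−1.53 to −0.63).

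In the dermomyotome list, 1 of 8 genes could be compared, and that gene, Pax3, was higher. Its 8 genes summed to 0 UMIs in Ctrl E9.5 and 120 UMIs in cKO E9.5 members. The myotome list was carried by Des, the muscle intermediate filament, at 28.1 and 35.4 UPM. Cardiopharyngeal genes (median −0.44 over 3) and Hedgehog response genes (median −0.70 over 5) held none past 2-fold, and Ptch1 was at 58.2 and 35.8 UPM.

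Among signalling lists at E9.5, BMP genes had a median of 0.44 over 6, with Bmp4 at 9.82 and 24.1 UPM and past 2-fold. WNT genes had a median of −0.21 over 7, with Rspo3 higher (9.82 and 22.0 UPM) and Sfrp1, a secreted inhibitor, lower (288 and 98.4 UPM). Retinoic acid genes had a median of 0.25 over 5, with the receptor Rarg lower (23.2 and 8.95 UPM). FGF (0.02 over 5) and Notch genes (0.16 over 3) held none past 2-fold. Of the 3 Hox genes that could be compared, none was past 2-fold. Matrix genes had a median of −0.08 over 14, with Col1a2 and Sparc higher and Col9a1 lower. Col9a1 was at 205 and 84.6 UPM, and Sparc at 38.6 and 91.9 UPM while it was lower in cKO in the remaining barcodes (187 and 109 UPM).

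Cell cycle genes summed to 2516 UPM in Ctrl E9.5 members and 1816 UPM in cKO E9.5 members, with a median log2 ratio of −0.45 over 15 and Mcm2 past 2-fold. The remaining barcodes stood at 2750 and 1965 UPM. The early response list was carried by Jun, at 36.5 and 61.9 UPM. Of the cardiomyocyte list only Myl7 could be compared (7.72 and 16.5 UPM), and 1 cKO member held 10 of its 48 UMIs. Of the lateral plate list only Prrx1 could be compared (93.3 and 149 UPM). The list of genes that the study reported as lower or gained without Tbx1, in part from these libraries, is no independent evidence. It had 2 comparable genes, of which Wnt5a was higher (14.0 and 32.7 UPM). The study had reported Wnt5a as lower, in its multilineage progenitors. The presomitic list had 1 comparable gene, Cyp26a1, and of the endothelial list Egfl7 was at 42.1 and 41.6 UPM.

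At E8.5 the genotypes differed in fewer genes. Of 5693 genes, 84 (1.48%) were 2-fold or more higher in cKO members and 40 (0.703%) lower, and the median gene stood at 0.00. Among the higher genes, the 10 highest relative to the rest were Dzip1l, Nmrk1, Ttf1, Terf2ip, Tulp3, Pex3, Dnajc13, Wdr34, Ipmk and Ccdc163. In 6 of them most UMIs came from single barcodes. One member held 41 of 57 Dzip1l UMIs, another 41 of 52 Nmrk1 UMIs, another 65 of 95 Terf2ip UMIs and another 43 of 58 Ccdc163 UMIs. One further member held 52 of 74 Ttf1 and 40 of 53 Wdr34 UMIs. Without the member richest in a gene, the log2 ratio of Dzip1l went from 1.84 to 0.28 and that of Wdr34 from 1.59 to −0.29, and Tulp3 had 55 of 134 UMIs in 1 member. Pex3, Dnajc13 and Ipmk were spread over 25, 30 and 25 cKO members, but Dnajc13 stood at −0.05 when barcodes were thinned to equal depth before the rule.

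The lower genes at E8.5 were seen in many Ctrl members. Aplnr, the apelin receptor, had 67 UMIs in 42 of 94 Ctrl members and 12 UMIs in 11 of 57 cKO members, a log2 ratio of −2.23 (−3.25 to −1.33), against −0.63 in the rest. The study had reported Aplnr as lower in cKO progenitors of Mesp1Cre embryos and, with like results, of Tbx1Cre embryos at E9.5. Aplnr is therefore no independent pick here. Arl4a went from 32.0 to 9.24 UPM and Arl4c, its relative among small GTPases, from 21.1 to 8.01 UPM. Halr1, a noncoding RNA, went from 46.4 to 11.1 UPM, and Hoxa2 stood at 22.7 and 33.3 UPM. Without stated strand counting, reads of Halr1 and of overlapping transcripts cannot be told apart. Tagln went from 28.9 to 11.7 UPM. Ctsa, Plin2, Tm9sf4 and Cdkn2d were lower too, with log2 ratios from −1.52 to −1.31.

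By lists at E8.5, none of 5 somitic genes and none of 4 sclerotome genes was past 2-fold. The somitic genes include Tcf15 and Meox1, which chose the members. The sclerotome median was 0.23. Twist1, a mesenchymal factor, was at 120 and 183 UPM. Fgf8 was lower in cKO, at 25.3 and 10.5 UPM, a log2 ratio of −1.27 (−2.16 to −0.45), which became 0.08 with barcodes thinned to equal depth before the rule. Notch2 was lower at 65.5 and 27.7 UPM. Gli2, a Hedgehog effector, was higher at 9.28 and 25.2 UPM, Frzb, a WNT antagonist, at 16.5 and 36.3 UPM, and Crabp2 at 47.97 and 97.3 UPM. Crabp2 was however seen in fewer cKO members, 25 of 57 against 49 of 94, and 1 cKO member held 51 of its 158 UMIs. Without Pax3-bearing members its log2 ratio of 1.02 became −0.96. None of 4 BMP, 6 FGF, 11 matrix or 15 cell cycle genes was past 2-fold.

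Between the stages, several matrix genes were higher at E9.5 in Ctrl members. The stage comparisons use the same libraries as the genotype comparisons and are no separate evidence. Of 5765 genes, 268 (4.65%) were 2-fold or more higher at E9.5 and 279 (4.84%) lower, with the median gene at 0.21. Of the matrix list, 4 of 11 comparable genes were higher and none lower, with a median of 0.50, against 0.60 in the rest, and a sum that went from 579 to 1182 UPM. Col3a1, a fibrillar collagen, went from 19.6 to 256 UPM, a log2 ratio of 3.71 (3.22 to 4.23), and did so in the rest as well (3.24). Lum went from 73.8 to 343 UPM and Sfrp1 from 69.6 to 288 UPM. Nr2f1, a nuclear receptor, went from 9.28 to 133 UPM and led the ranking against the rest, followed by Itm2a at 24.2 and 138 UPM. Pax9 went from 4.13 to 30.2 UPM, and the share of members with 2 or more UMIs of Pax1 and Pax9 together from 2.13% (0.259 to 7.48) to 15.6% (8.32 to 25.6). Cdkn1c, a cell cycle inhibitor, went from 64.5 to 253 UPM. It was the 1 gene past 2-fold of the 15 comparable cell cycle genes, whose sum went from 1635 to 2516 UPM, with a median of 0.66 against 0.47 in the rest.

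In Ctrl members 3 of the 5 comparable FGF genes were lower at E9.5. Aplnr had 67 UMIs at E8.5 and 1 UMI at E9.5. Its log2 ratio was −5.62 (−10.95 to −3.09), against −0.23 in the rest. Fgf8 went from 25.3 to 2.11 UPM. The FGF genes past 2-fold were Spry2 (62.9 to 11.9 UPM), Dusp6 (60.9 to 25.3 UPM) and Spred1 (60.3 to 33.0 UPM), all feedback inhibitors of the pathway, and the list's median was −0.87. Among single genes, Acta2 went from 27.9 to 3.51 UPM, Tagln from 28.9 to 2.81 UPM and Myl7 from 40.7 to 7.72 UPM. Hoxa2, by contrast, went from 22.7 to 72.3 UPM.

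In cKO members, 338 of 6513 genes (5.19%) were higher at E9.5 and 292 (4.48%) lower, with the median gene at 0.02. Of these, 166 and 137 were past 2-fold in the same direction in the remaining barcodes too. The 2 libraries were counted on different gene tables. Tfdp1, for example, had 1 and 329 UMIs, with a log2 ratio of 5.51 in the rest. The part of the gene tables in these counts was not tested. The matrix list had 7 of 15 comparable genes higher, Col3a1 among them (19.1 to 250 UPM), and 1, Fn1, lower. Of 6 FGF genes 4 were lower, Spry2 from 43.7 to 16.9 UPM, and the list's median was −1.10, against −0.63 in the rest. Bmp4 went from 1.23 to 24.1 UPM, a log2 ratio of 4.29 (2.38 to 7.36), and Dlk1, a Notch-related transmembrane protein, from 14.8 to 176 UPM. Zic1 had 1 UMI at E8.5 and 128 UMIs at E9.5. Igf1 went from 1.85 to 32.3 UPM and Jun from 4.93 to 61.9 UPM. Epha2, an ephrin receptor, had 66 UMIs and then 3, with a log2 ratio of −3.23 in the rest too. Six2, a homeobox factor of head mesenchyme, went from 42.5 to 5.16 UPM. Pax3 stood at 18.5 and 30.3 UPM, where in Ctrl members it had 26 UMIs and then none. Sox9 stood at 103 and 64.3 UPM in cKO, and at 113 and 130 UPM in Ctrl members. The difference between the genotypes in these stage changes was not tested.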

How the data were processed

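Droplet single-cell RNA-seq (3′ v2 chemistry) was measured in 4 libraries, 1 per genotype and stage. The values are UMI counts, raw and by gene and barcode, which the authors deposited. They were made with Cell Ranger 3.1.0 per the labels (the E8.5 matrices carry 3.0.2 in their headers) on mm10. Barcode numbers equalled the cell numbers of the study, except 1 fewer in cKO E9.5. Ctrl and cKO E8.5 and Ctrl E9.5 were counted on 27998 genes and cKO E9.5 on 31053, so the 27514 shared identifiers were used. Gene positions are those of RefSeq on GRCm38.p6. There were 0 columns of other samples.

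UMIs were summed over members and divided by their total over shared genes (UPM). Poisson, Clopper-Pearson and conditional binomial 95% intervals were exact and cover counting error only. Intervals of differences between shares were built by the Newcombe method from the Clopper-Pearson limits and are not exact. With 1 library per group no test was made. A gene was compared with 50 or more UMIs in both groups together, and counted as higher or lower at 2-fold or more from the median gene. Sums of 0 were set to a floor of 3 UMIs. Named genes were list genes and the 20 with the largest fold over the rest in Ctrl E9.5. Per comparison, the 10 highest and 10 lowest by log2 ratio in members minus that in the remaining barcodes were named too. They were ranked among all compared genes past 2-fold in members in that direction. Sex-linked, haemoglobin, mitochondrial, ribosomal protein and predicted genes were left out of those rankings. Some genes that these rules name are not reported here. Genes shown for the split by Pax3 were chosen after their values were seen. Members and the 26 gene lists were chosen with earlier results of these data known. Doublets were not removed. Scrublet marked 1.81%, 1.93%, 0% and 0.0319% of barcodes, so it did not work at E9.5. Scripts were tested on simulated data. Python 3.11.15, numpy 2.4.6, scipy 1.17.1, pandas 2.3.3 and matplotlib 3.10.9 were used, with scanpy 1.11.5 for Scrublet and edgeR 4.0.16 in R 4.3.3 for TMM factors alone. Alternatives covered the rule, depth, doublets, scaling, weight of cells and the count minimum.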

Additional observations from a re-analysis of the deposited data

Results flagged for a closer look

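Genes and shares are given here where the cKO and Ctrl values differed in opposite directions at E8.5 and E9.5. With 1 library per group, the difference between the stages was not tested for any of them. Tagln had a log2 ratio of cKO to Ctrl of −1.30 at E8.5 and 3.24 at E9.5. Arl4c, a small GTPase, had −1.40 at E8.5 and 1.87 at E9.5. Pex3, a peroxisome assembly gene, had 1.30 at E8.5 and −1.43 at E9.5. The share of barcodes that were members differed by −1.33 percentage points (−3.20 to 0.606) in cKO at E8.5 and by 0.918 points (0.417 to 1.42) at E9.5. The E8.5 interval spans 0, and that difference was 1.28 points with barcodes thinned before the rule and 6.99 points with no limit on Arg1, so its direction did not hold.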

How the results depend on the processing

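No paired analysis was possible because each group had 1 library and no test was made. Counts of genes are given in the order E8.5 cKO against Ctrl higher and lower, E9.5 cKO against Ctrl higher and lower, Ctrl E9.5 against E8.5 higher and lower, and cKO E9.5 against E8.5 higher and lower, where the report has 84, 40, 203, 141, 268, 279, 338 and 292. They were 649, 613, 994, 710, 1048, 1050, 1245 and 961 with a minimum of 1 UMI, 227, 184, 463, 308, 539, 561, 684 and 509 with 20, and 41, 14, 89, 73, 135, 165, 156 and 164 with 100. They were 26, 19, 74, 25, 25, 63, 73 and 43 with the ratio of the remaining barcodes subtracted, and 51, 22, 70, 71, 96, 128, 114 and 149 with barcodes thinned to 10000 UMIs before the rule. With 3 UMIs of both rule genes, 25 genes were lower in cKO at E8.5 and 175 higher at E9.5 in Ctrl. With 1 UMI, 70 were lower in cKO at E8.5, 312 higher in cKO at E9.5 and 577 higher at E9.5 in cKO. Fewer or more genes or cells enter under these settings.

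Member shares in the order Ctrl E8.5, cKO E8.5, Ctrl E9.5 and cKO E9.5 were 4.46%, 3.58%, 0.495% and 1.18% with 3 UMIs, and 12.8%, 8.17%, 4.47% and 7.12% with 1 UMI, when cKO minus Ctrl was −4.67 and 2.64 points. After thinning, the last 3 of these were 7.06%, 0.674% and 1.35%, with a difference of 1.28 points at E8.5. Without the Arg1 limit, chosen after seeing the data like the settings that leave out Pax3-bearing or highest members, they were 14.3%, 21.3% and 3.1% in Ctrl E8.5, cKO E8.5 and cKO E9.5, with a difference of 6.99 points at E8.5. The share of members with Pax3 in cKO E9.5, and its difference from Ctrl E9.5, was 23.0% with 3 UMIs of the rule genes, 4.71% with 1, 21.9% for 1 or more Pax3 UMIs and 5.63% in thinned members, and the share was 8% after thinning before the rule. In cKO E8.5 it was 3.51% in thinned members and 2.82% after thinning before the rule, and in Ctrl E8.5 20.2% for 1 or more UMIs. The share with Pax1 and Pax9 was 8.51%, 15.8%, 42.9% and 28.8% for 1 or more UMIs, with a difference of −14.1 points at E9.5. In thinned members it was 0% in Ctrl E8.5, and at E9.5 it was 4% for Ctrl and 5.63% for cKO. After thinning before the rule it was 0% in both E8.5 libraries and 6.67% in cKO E9.5. In cKO E9.5 it was 7.85% with 1 UMI of the rule genes, and in cKO E8.5 0% without Pax3-bearing members.

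Of the log2 ratios of named genes, 19 reversed over all settings. In cKO against Ctrl at E8.5, Wdr34 stood at −1.09 with 3 UMIs, −2.62 after thinning before the rule and −0.29 without its highest member. Thinning gave Crabp2 −0.43, Dnajc13 −0.046, Fgf8 0.079 and Ttf1 −0.24, and between stages in cKO Spry1 0.10 and Ttf1 0.73. Crabp2 was −0.96 at E8.5 and Dzip1l 0.17 between stages in cKO without Pax3-bearing members. Acta2 at E9.5 was −0.50 with 1 UMI. Without the highest member, Ccdc163 was −0.082 at E8.5 and Terf2ip 0.37 between stages in cKO. With the remaining barcodes subtracted, stage ratios were −0.75 for Col1a2 in Ctrl, and in cKO −0.47 for Col1a2, −0.23 for Col9a1, 0.19 for Fn1 and −0.53 for Rspo3. List medians changed sides for the presomitic list, at 1.34 without barcodes over 2 times the median UMIs and 1.38 without Pax3-bearing members between stages in Ctrl and 0.71 for genotype at E9.5 with a minimum of 1 UMI, and for the myotome list, at 0.029 between stages in Ctrl with that minimum. Beyond the settings whose construction changes the genes or cells that enter, the cause was not tested.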
